A study of Mus musculus with 6 samples.

Results

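Plvap, which encodes the protein of the diaphragm that spans endothelial fenestrae, and 7 genes of the caveolar coat and its membrane-bending partners were followed in choroid endothelial cells (ECs) of young and mature mice. The 8 genes (Plvap, Cav1, Cav2, Ptrf, Sdpr, Prkcdbp, Ehd2 and Pacsin2) were chosen by symbol, and all 8 were found among the 22026 gene symbols of the series. The cavins are listed there under older symbols, Ptrf for Cavin1, Sdpr for Cavin2 and Prkcdbp for Cavin3. RNA was sequenced from mice of strain 129/B6 at post-natal day 5 (P5) or 30 (P30), with 3 independent isolations per age and 7 animals pooled in each isolation. No mutation, transgene or drug treatment separates the ages. At both ages, ECs in the living animal were labelled with an injected antibody to VE-Cadherin, the RPE/choroid was dissected and digested, and labelled cells were sorted by flow cytometry. P5 mice received less antibody than P30 mice and were anaesthetized by cold. Each isolation is a pool, so the spread between isolations is a spread between pools, and the sex of the pooled P5 pups is not given in the sources used here.

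The choriocapillaris, the capillary bed that feeds the retinal pigment epithelium (RPE) and photoreceptors, is fenestrated. Fenestrae are round pores through thin endothelium, and PLVAP forms the fibrils of the diaphragm that closes each pore. The same protein closes the neck of caveolae, flask-shaped pits of the plasma membrane. Caveolae are built from caveolin-1, which caveolin-2 joins, and from a cytosolic cavin coat in which cavin-1 is required and cavin-2 and cavin-3 are accessory. EHD2, an ATPase, surrounds the neck of caveolae and holds them at the surface, and PACSIN2, an F-BAR protein, bends the membrane there.

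Plvap lies on chromosome 8, from 74021653 to 74035668 on the minus strand of the mm9 build, in the GENCODE annotation of that build. Cav2 (chromosome 6, 17231185 to 17239115) and Cav1 (chromosome 6, 17256335 to 17291452) are neighbours on the plus strand, with 17219 bases between them. Ptrf lies on chromosome 11 (100818047 to 100832201, minus strand) and Sdpr on chromosome 1 (51345970 to 51359803, plus strand). Prkcdbp (112629121 to 112630711) and Ehd2 (16532326 to 16552916) are both on the minus strand of chromosome 7. Pacsin2 lies on chromosome 15 (83206037 to 83295036, minus strand). All 8 are annotated as protein-coding genes.

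Of the 8 genes, 6 were matched to promoters in the RefSeq table of build GRCm38.p6, and Plvap and Prkcdbp were not. The 250 bases before the start are printed here for Cav2 and Cav1, because the ratio of these neighbours did not overlap between ages, and for Sdpr, the other coat gene in which the isolations of both ages did not overlap. Capitals mark a match on either strand to TATAAA (an element of some core promoters), to GGGCGG (a GC box), to CCGGAA (the core of ETS sites), to AGATAA (bound by GATA factors), to TGACTCA (an AP-1 site) or to CACGTG (an E-box). The windows are chr6:17280935-17281184 for Cav2, chr6:17306085-17306334 for Cav1, the first of 2 listed starts, and chr1:51288876-51289125 for Sdpr, all on the plus strand.
Cav2: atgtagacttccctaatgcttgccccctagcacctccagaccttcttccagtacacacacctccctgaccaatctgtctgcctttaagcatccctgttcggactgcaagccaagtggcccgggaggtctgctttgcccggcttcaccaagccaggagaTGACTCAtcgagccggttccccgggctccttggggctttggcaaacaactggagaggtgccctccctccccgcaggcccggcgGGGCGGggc
Cav1: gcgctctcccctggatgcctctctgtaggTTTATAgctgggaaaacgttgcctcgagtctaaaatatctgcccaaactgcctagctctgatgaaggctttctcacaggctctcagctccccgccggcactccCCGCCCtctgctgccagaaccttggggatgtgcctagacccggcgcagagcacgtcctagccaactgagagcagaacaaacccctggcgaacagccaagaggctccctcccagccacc
Sdpr: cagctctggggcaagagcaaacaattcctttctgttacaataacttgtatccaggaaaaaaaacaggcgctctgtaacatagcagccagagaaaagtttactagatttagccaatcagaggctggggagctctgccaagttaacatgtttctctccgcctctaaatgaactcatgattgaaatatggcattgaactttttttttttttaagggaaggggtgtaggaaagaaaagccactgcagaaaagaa
The Cav2 window held TGACTCA, 92 bases before the start, and GGGCGG, 9 bases before it. The Cav1 window held TATAAA, with its first printed base 221 bases before the start, and GGGCGG, 118 bases before it, and both matched on the other strand. The Sdpr window held none of the motifs, and its GC content was 40.4%, against 62.0% for Cav2 and 59.6% for the printed Cav1 window. The window of the other listed Cav1 start, not printed here, held none of the motifs either, and its GC content was 60.8%. GGGCGG was present in 32.7% of the 32851 promoters in the table, TATAAA in 12.4%, CCGGAA in 12.0%, AGATAA in 9.99%, CACGTG in 6.02% and TGACTCA in 4.46%. Over all promoters the median GC content was 52.4%.

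The values are FPKM, the fragments of a library that fall on a transcript, scaled to its length and to the size of the library, which the authors computed in CuffLinks after normalizing for GC and the upper quartile. Where 3 values follow each other, they are replicates 1, 2 and 3 of that age. The depth of each library is unknown, so no counting error is given. The summed FPKM of a library was 1432700 to 1485330 at P5 and 1571230 to 1734640 at P30. Differences were tested on log2(FPKM + 1) with limma over 12481 genes, those whose mean reached 5 FPKM at one age or both, and a gene was called at a Benjamini-Hochberg adjusted p under 0.01. All 8 genes passed this minimum at both ages. The 8 endothelial marker genes, Pecam1, Cdh5, Tek, Tie1, Emcn, Erg, Egfl7 and Esam, had a summed FPKM of 14384 to 15582 at P5 and 17655 to 21303 at P30. Marker sums of several other cell types were also higher in every P30 isolation, from 497 to 1765 at P5 against 1872 to 6290 at P30 for 7 pericyte genes, and from 536 to 563 against 613 to 1254 for 6 smooth muscle genes. Smtn made up 420 to 486 FPKM of the smooth muscle sums at P5, and its P30 mean was 0.939 times that of P5. Acta2, Myh11, Tagln, Cnn1 and Lmod1 had P30 means 4.22, 10.3, 4.15, 3.21 and 10.6 times those of P5. Only Myh11 and Lmod1 were called, and the P5 mean of Lmod1 was below the minimum. For 7 fibroblast genes the sums were 725 to 1193 at P5 and 1782 to 4490 at P30, and for 8 RPE genes 91.3 to 178 and 554 to 3939. For 8 photoreceptor genes the range was 16.3 to 28.3 at P5 and 59.0 to 407 at P30. Taken singly, 4 of the 7 pericyte, 5 of the 6 smooth muscle, 4 of the 7 fibroblast, 8 of the 8 RPE and 6 of the 8 photoreceptor genes were higher at P30 without overlap. Over all genes tested, 22.0% were. Cnn1 (smooth muscle), Best1 (RPE) and Pde6b (photoreceptor), which are in these counts, were below the FPKM minimum and were not tested. No pericyte gene was called (adjusted p of at least 0.0215 from limma). Of 7 haematopoietic genes, 4 were lower at P30 without overlap, where 33.0% of all genes tested were. Ptprc, Cx3cr1 and Aif1 were called, at 0.288, 0.174 and 0.173 times their P5 means (adjusted p = 0.000732, 0.00426 and 0.00368 from limma). Csf1r, at 0.399 times its P5 mean, was not called (adjusted p = 0.0408 from limma). Lyz2, Cd14 and Itgam overlapped between ages, with P30 means 1.24, 1.42 and 0.600 times those of P5. The sums of the 7 haematopoietic genes overlapped between ages (529.6 to 779 and 241 to 762). The 5 skeletal muscle genes summed to at most 16.7 in any isolation, and the 4 adipocyte genes were listed at 0 in all 6. Smooth muscle cells, fibroblasts, adipocytes and muscle are known to carry caveolae too, and fewer cells of a type cannot be told apart from less RNA per cell in bulk RNA.

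Plvap rose 2.47-fold between P5 and P30 and was the only one of the 8 genes to be called. Its FPKM was 4622, 4854 and 4601 at P5, and 12091.5, 8862 and 13816 at P30. The P5 isolations were close together, while the P30 isolations were spread and all lay above P5. The means were 4692 ± 140.2 at P5 and 11589.8 ± 2515 at P30 (SD, n = 3 per age). On the log2 scale the difference was 1.28 (SE 0.18, adjusted p = 0.00182 from limma), with a 95% interval from 1.83-fold to 3.23-fold. When a P5 isolation was left out the difference was 1.27 without replicate 1, 1.31 without replicate 2 and 1.27 without replicate 3, but the adjusted p from limma (0.0104, 0.0119 and 0.0123) no longer passed 0.01. With quantile normalization the difference was 0.59 (adjusted p = 0.101 from limma). Quantile normalization sets a value by its rank alone, and Plvap ranked 6th, 5th and 5th of all genes at P5 and 2nd, 5th and 1st at P30.

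Plvap took 0.321% ± 0.00642 of the summed FPKM at P5 and 0.709% ± 0.186 at P30 (SD, n = 3). In P30 replicate 3 it was the highest gene of the library, at 13816 FPKM, and in P30 replicates 1 and 2 the highest gene was Mgp. P30 replicate 2, with the lowest Plvap of its age, had the highest sums of the pericyte (6290), smooth muscle (1254) and fibroblast (4490) markers. Without that isolation the difference in Plvap was 1.46 on the log2 scale (adjusted p = 0.00123 from limma). The part of these marker sums in the level of Plvap was not tested.

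**Figure D1:**
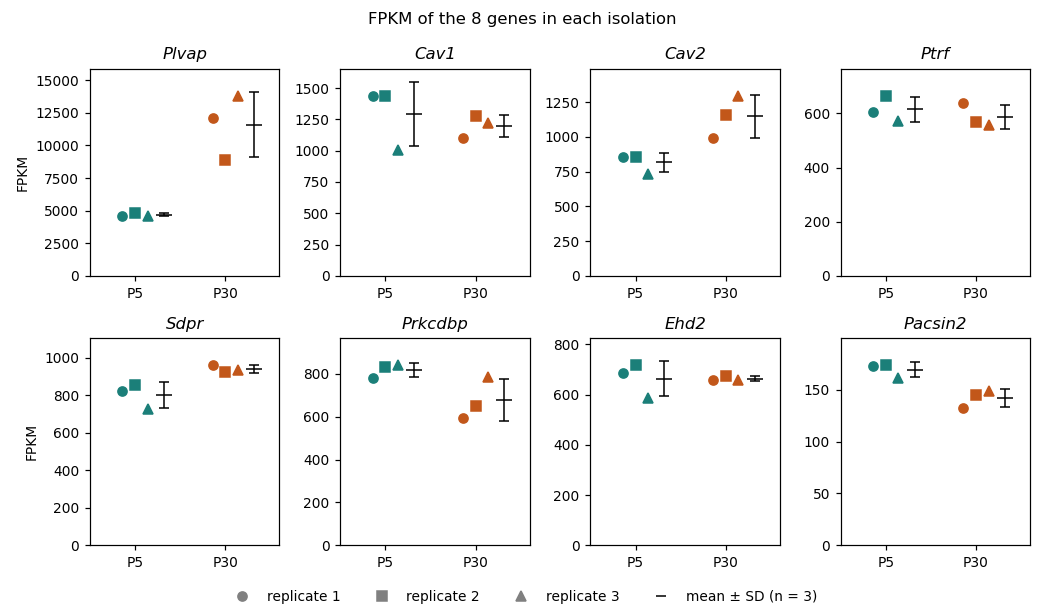
FPKM (y axis, linear, from 0) of each of the 8 genes in the 3 P5 and 3 P30 isolations, one panel per gene, with symbols for replicates and the mean ± SD beside them. Plvap lies between 4601 and 4854 at P5 and between 8862 and 13816 at P30, while Cav1, Ptrf, Prkcdbp and Ehd2 overlap between ages.

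Relative to other endothelial genes, Plvap was higher at P30 for most reference genes, by amounts that depended on the gene. The ratio of Plvap to each of the 8 endothelial markers was higher at P30, without overlap, for 7 of the 8. The mean ratio at P30 was 3.90 times that at P5 for Cdh5, which encodes VE-Cadherin, the protein used for the sort, and 2.85 times for Pecam1, the adhesion protein CD31. Against Emcn, a sialomucin of capillary and venous ECs, the ratio was 1.56 ± 0.0398 at P5 and 2.12 ± 0.570 at P30 (SD, n = 3), and the isolations overlapped. Emcn itself rose from 3002 ± 66.3 to 5523 ± 357 FPKM (log2 difference 0.88, adjusted p = 0.00106 from limma), a call lost without P5 replicate 2 (adjusted p = 0.0104) and with quantile normalization, where the difference was -0.0096 (adjusted p = 0.954). Cdh5 fell from 2971 ± 95.4 to 1885 ± 52.4 FPKM (log2 difference -0.66, adjusted p = 0.00205 from limma), a call lost without P5 replicate 1, 2 or 3 (adjusted p = 0.0108, 0.0188 and 0.0115), and its fall enters the ratio of Plvap to Cdh5. When all samples were scaled to the mean log2 level of the 8 markers, the difference in Plvap was 1.04 (adjusted p = 0.0043 from limma). That scaling put the median of all genes at -0.33 in place of -0.10.

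**Figure D2:**
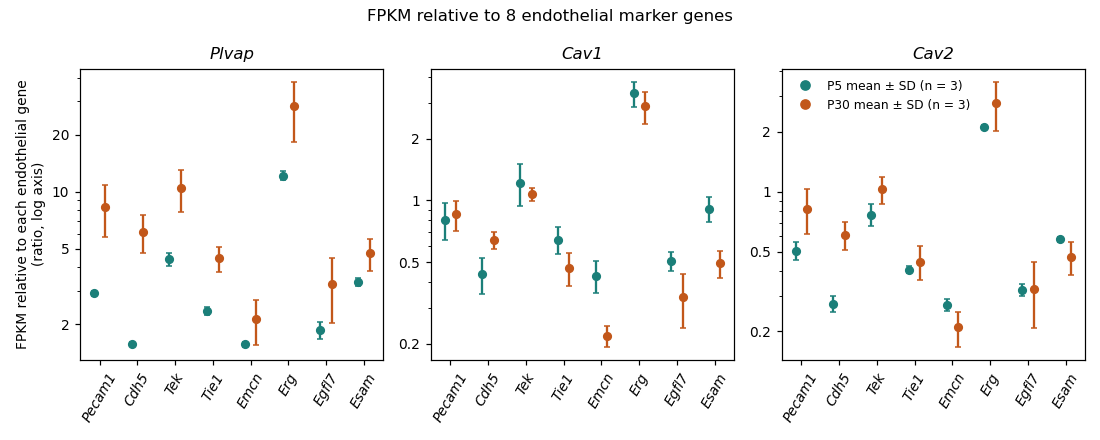
Mean ratio of the FPKM of Plvap, Cav1 and Cav2 to that of each of 8 endothelial marker genes (y axis, log scale), at P5 and P30, with bars of ± SD over 3 isolations. For Plvap the P30 mean is between 1.36 and 3.90 times the P5 mean, and for Cav1 it is between 0.508 and 1.46 times.

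The caveolins were both abundant at both ages, and neither was called. Cav1, the caveolin without which ECs form no caveolae, had 1439.8, 1438 and 1001 FPKM at P5 and 1103, 1276 and 1220.4 at P30. The ages overlapped, and P5 replicate 3 stood below every other isolation. The mean was 1293 ± 253 at P5 and 1200.0 ± 88.2 at P30 (SD, n = 3), a log2 difference of -0.090 (SE 0.16, adjusted p = 0.675 from limma). The 95% interval ran from 0.726-fold to 1.22-fold, so a change of 2-fold in either direction lay outside it. Across the other scalings the difference in Cav1 ran from -0.41 with quantile normalization, through -0.33 with endothelial marker scaling and -0.26 with equal summed FPKM, to 0.011 with median-of-ratios scaling, and it was -0.26 without P5 replicate 3. The adjusted p from limma was at least 0.0723 in these.

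Cav2, which needs caveolin-1 to reach the cell surface, had 858, 855 and 736 FPKM at P5 and 989, 1158 and 1297 at P30. The P30 values all lay above those of P5. The mean was 816 ± 69.7 at P5 and 1148 ± 154 at P30 (SD, n = 3), a ratio of 1.41. The log2 difference of 0.49 (SE 0.13, 95% interval from 1.14-fold to 1.72-fold) had an adjusted p of 0.0220 from limma and was not called. It was 0.25 when scaled to the endothelial markers (adjusted p = 0.246 from limma), and 0.21 with quantile normalization (adjusted p = 0.286 from limma). Median-of-ratios scaling gave a larger difference, 0.59 (adjusted p = 0.0111 from limma).

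Among the cavins, Ptrf overlapped between ages, Sdpr was higher in each P30 isolation, and Prkcdbp had a lower mean at P30, and none was called. Ptrf, which encodes the essential coat protein cavin-1, had 607, 666 and 571 FPKM at P5 and 639, 568 and 556 at P30. The log2 difference was -0.064 (SE 0.10, adjusted p = 0.645 from limma), with a 95% interval from 0.809-fold to 1.13-fold, and the isolations of the ages overlapped. It was 0.037 with median-of-ratios scaling, but -0.30 with endothelial marker scaling (adjusted p = 0.0304 from limma) and -0.29 with quantile normalization (adjusted p = 0.0407 from limma).

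Sdpr, which encodes cavin-2, had 823, 857 and 727 FPKM at P5 and 962, 922 and 938 at P30. The P30 isolations were close together and all above P5. The log2 difference of 0.23 (SE 0.10) had an adjusted p of 0.0954 from limma, with a 95% interval from 1.004-fold to 1.38-fold. It was -0.0079 when scaled to the endothelial markers and -0.048 with quantile normalization, but 0.33 with median-of-ratios scaling (adjusted p = 0.0367 from limma). Prkcdbp, which encodes cavin-3, had 780.0, 834 and 841 FPKM at P5 and 596, 649.9 and 786 at P30. P30 replicate 3 lay within the P5 range, and the other P30 isolations lay below it. The log2 difference was -0.28 (SE 0.12, adjusted p = 0.102 from limma), with a 95% interval from 0.677-fold to 1.001-fold. It was -0.53 with quantile normalization (adjusted p = 0.0174 from limma) and -0.52 with endothelial marker scaling (adjusted p = 0.0358 from limma). With median-of-ratios scaling it was -0.18 (adjusted p = 0.307 from limma).

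Ehd2 and Pacsin2, the genes for proteins of the caveolar neck, were not called either. Ehd2 had 687, 718 and 586 FPKM at P5 and 657, 675 and 659.9 at P30. The means were 664 ± 69.0 and 664 ± 9.71 (SD, n = 3), so the ages differed by far less than the P5 isolations did among themselves. The log2 difference was 0.0063 (SE 0.10, adjusted p = 0.965 from limma), its 95% interval ran from 0.849-fold to 1.19-fold, and its sign changed between scalings (-0.23 when scaled to the endothelial markers). Pacsin2 had the lowest level of the 8 genes, with 173, 174 and 161 FPKM at P5 and 133, 145 and 149 at P30. Here the P30 values all lay below those of P5. The log2 difference was -0.25 (SE 0.10, adjusted p = 0.0758 from limma), with a 95% interval from 0.719-fold to 0.983-fold. It was -0.49 with endothelial marker scaling (adjusted p = 0.0196 from limma) and -0.42 with equal summed FPKM (adjusted p = 0.0109 from limma). With median-of-ratios scaling it was -0.15 (adjusted p = 0.235 from limma).

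Across the 8 genes, then, 1 was called as higher at P30 (12.5%) and 0 as lower in limma, against 19.2% of all genes tested that were called in either direction, 8.51% higher and 10.7% lower. A single call among 8 genes is near these shares. At an unadjusted p under 0.05, 3 were higher (Plvap, Cav2 and Sdpr) and 1 was lower (Pacsin2), 4 of 8 in all, against 49.5% of all genes tested (20.7% higher and 28.8% lower). With the further limit of a 2-fold difference in mean FPKM + 1, the 1 call was still Plvap, against 11.7% of all genes (5.89% higher and 5.82% lower). The isolations of the ages did not overlap in 4 of the 8 genes, 3 of them higher at P30 and 1 lower, against 55.1% of all genes tested (22.0% higher and 33.0% lower). The median log2 difference was -0.03 over the 8 genes and -0.10 over all genes tested. The balance of calls over all genes moved with the scaling, to 10.6% higher and 8.64% lower with median-of-ratios scaling, 7.23% and 19.9% with equal summed FPKM, and 5.86% and 18.2% with scaling to the endothelial markers.

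**Figure D3:**
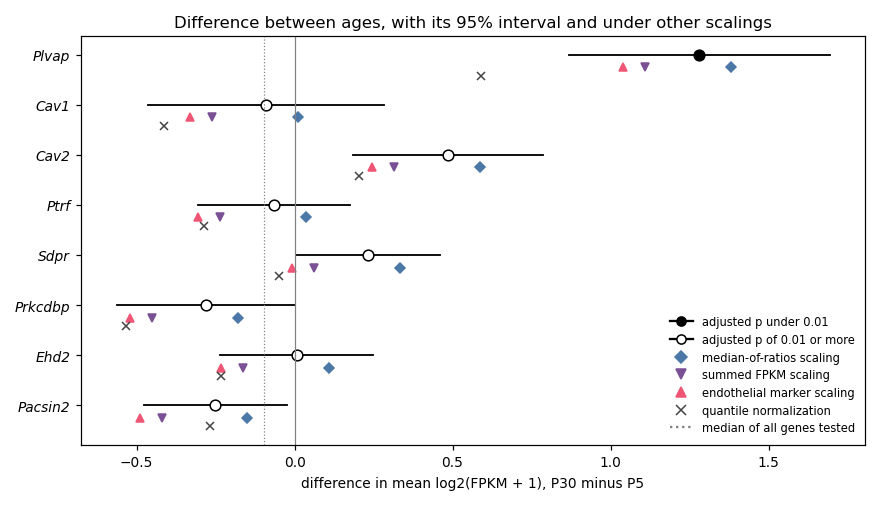
Difference in mean log2(FPKM + 1), P30 minus P5 (x axis), for each of the 8 genes, with its 95% interval from limma (circles, filled where the adjusted p was under 0.01) and the difference under 4 other scalings (coloured symbols below each circle). Only the interval of Plvap, around 1.28, lies wholly above 0.5, and Cav1, Ptrf, Sdpr and Ehd2 change sign between scalings.

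The replicates of the 8 genes differed in spread. The SD of log2(FPKM + 1) between isolations was 0.04 at P5 and 0.33 at P30 for Plvap, against a median over all genes tested of 0.13 at P5 and 0.26 at P30. Ehd2 and Sdpr showed the opposite order, 0.15 and 0.12 at P5 and 0.02 and 0.03 at P30. P5 replicate 3 had the lowest value of its age in 7 of the 8 genes, all but Prkcdbp, in which it was the highest.

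Since FPKM is given per length of transcript, levels of different genes can be set beside each other. At P5 the order of mean FPKM was Plvap, Cav1, Prkcdbp, Cav2, Sdpr, Ehd2, Ptrf and Pacsin2. Plvap was 3.63 times Cav1, and Ptrf was 3.63 times Pacsin2. The ranges of Prkcdbp and Cav2 and of Cav2 and Sdpr overlapped, and their order differed between libraries. Those of Ehd2 and Ptrf overlapped too, but Ehd2 was the higher in 3 of 3 libraries. At P30 the order was Plvap, Cav1, Cav2, Sdpr, Prkcdbp, Ehd2, Ptrf and Pacsin2. Plvap was now 9.66 times Cav1, Cav1 and Cav2 overlapped, and so did Prkcdbp and Ehd2, with orders that differed between libraries, whereas Ehd2 was again above Ptrf in 3 of 3.

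Ratios within each library do not depend on a factor by which a library was scaled, so 7 of them were compared between ages with exact two-sided permutation tests of log2 ratios. With 3 isolations per age these exact permutation tests cannot go below p = 0.1, which is 0.233 after Benjamini-Hochberg adjustment over the 7 ratios, so none could pass. The ratio of Plvap to Cav1 was 3.21, 3.37 and 4.59 at P5 and 10.96, 6.94 and 11.3 at P30. All 3 values at P30 exceeded all 3 at P5, with a difference of 1.37 on the log2 scale (exact permutation test, p = 0.1, adjusted p = 0.233).

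The ratio of Cav2 to Cav1 was 0.596, 0.595 and 0.735 at P5 and 0.896, 0.907 and 1.06 at P30. The caveolin genes thus went from a mean ratio of 0.642 ± 0.0806 to 0.955 ± 0.0928 (SD, n = 3), a log2 difference of 0.58 with no overlap between ages (exact permutation test, p = 0.1, adjusted p = 0.233). Leaving out each isolation in turn gave differences from 0.50 to 0.68. The ratio of Sdpr to Ptrf likewise did not overlap, at 1.31 ± 0.0448 at P5 and 1.61 ± 0.0918 at P30 (exact permutation test, p = 0.1, adjusted p = 0.233, n = 3 per age).

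The other 4 ratios overlapped between ages. The ratio of Ptrf to Cav1, cavin-1 against caveolin-1, was 0.485 ± 0.0767 at P5 and 0.493 ± 0.0742 at P30 (exact permutation test, p = 0.9, n = 3 per age). That of Ehd2 to Cav1 was 0.520 ± 0.0570 and 0.555 ± 0.0355, that of Pacsin2 to Cav1 was 0.134 ± 0.0235 and 0.119 ± 0.00432, and that of Prkcdbp to Ptrf was 1.34 ± 0.119 and 1.16 ± 0.241 (SD, n = 3 at each age). The adjusted p of these 4 ratios was between 0.56 and 0.9 (exact permutation tests).

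Summed over the 5 coat genes, Cav1, Cav2, Ptrf, Sdpr and Prkcdbp, FPKM was 4508, 4649.9 and 3876 at P5 and 4289, 4575 and 4797 at P30. The ages overlapped, with 4345 ± 412 at P5 and 4553 ± 255 at P30 (SD, n = 3, exact two-sided permutation test, p = 0.6). The direction turned with the scaling, as the difference, P30 minus P5, was -306 FPKM with equal summed FPKM and -500.2 FPKM when scaled to the endothelial markers. Plvap alone, at 4601 to 4854 FPKM, was above the coat sum of its own library in each P5 isolation, by most in replicate 3 (4601 against 3876). At 8862 to 13816 FPKM it was far above the coat sum at P30.

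**Figure D4:**
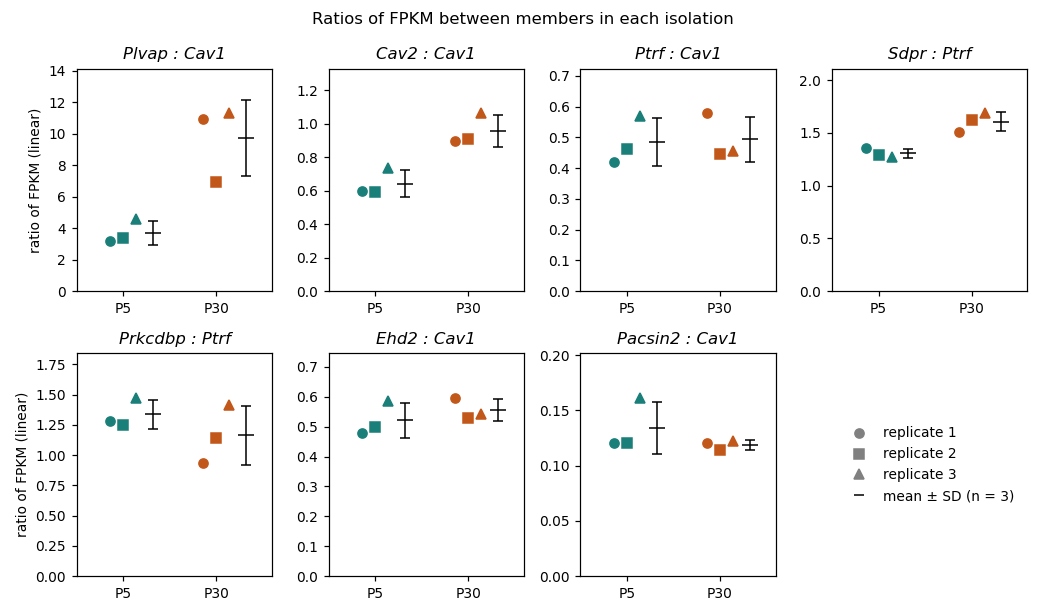
Linear ratio of FPKM between pairs of the 8 genes (y axis, from 0) in each P5 and P30 isolation, with the mean ± SD of 3 isolations. Plvap to Cav1, Cav2 to Cav1 and Sdpr to Ptrf do not overlap between ages, and the other 4 ratios do.

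The genes whose profile over the 6 samples was most like that of Plvap, among 6515 candidate genes whose mean over all samples reached 50 FPKM, were Lpcat1, Sgpp1, Ifitm2, Ppap2a and Cdkn1b, with Pearson correlations of log2(FPKM + 1) between 0.993 and 0.996. All 5 had a higher mean at P30, by 1.403-fold (Cdkn1b) to 2.99-fold (Ppap2a). The profile of Cav1 was most like those of 5031439G07Rik, Dynlrb1, Cnpy2 and Nagk, with correlations between 0.939 and 0.958. The 6 points share the step between ages and the scaling of each library, so these values only describe likeness.

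Proteins that work beside the caveolar coat were examined through a list of 14 other genes, relatives of EHD2, PACSIN2 and the coat proteins, the dynamins that cut vesicles from the membrane, the flotillins, filamin A and endothelial nitric oxide synthase. Of these, 10 passed the FPKM minimum and 3 were called, all higher at P30 (30.0% of those tested). Of all genes, 19.2% were called in either direction and 8.51% as higher. The list was chosen with earlier results of these data known, so its shares only describe it. None was called as lower in limma, and at an unadjusted p under 0.05 there were 7 higher and 1 lower, where 20.7% and 28.8% of all genes were. Of the 10, Pacsin3 passed the minimum at P30 alone and was not called. It is among the 7 higher genes (unadjusted p = 0.0441 from limma), so a difference was built into its selection. The median log2 difference of the 10 genes was 0.52. The largest rise was that of Ehd4, a close relative of EHD2 that works on endosomes, with 549.9, 507 and 433 FPKM at P5 and 1454, 1379 and 1596 at P30. The ages did not overlap, and the log2 difference of 1.57 (SE 0.12, adjusted p = 0.000213 from limma) passed in all 16 alternatives, where it was between 1.32 and 1.68. The mean of Ehd4 was therefore below that of Ehd2 at P5 (497 against 664 FPKM) and above it at P30 (1476 against 664).

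Ehd3, another EHD gene, rose from 45.6 ± 6.08 to 96.3 ± 19.1 FPKM (SD, n = 3, log2 difference 1.05, adjusted p = 0.00417 from limma), and Ehd1 had 173 ± 23.9 and 166 ± 17.4. Dnm2, the dynamin of most tissues, rose from 253 ± 11.5 to 378 ± 46.3 (log2 difference 0.57, adjusted p = 0.00739 from limma). The calls of Ehd3 and Dnm2 were lost in 7 and 10 of the 16 alternatives, including the replicate block and each P5 isolation left out. Without P5 replicate 1, 2 or 3 the adjusted p from limma was 0.0107, 0.0239 and 0.0235 for Ehd3 and 0.0307, 0.0302 and 0.0360 for Dnm2. Without P30 replicate 3 it was 0.0118 for Ehd3 and 0.0129 for Dnm2, without P30 replicate 2 it was 0.0106 for Ehd3, and without P30 replicate 1 it was 0.0119 for Dnm2. Flna, which encodes the actin crosslinker filamin A that binds caveolin-1, had 545 ± 22.3 and 386 ± 76.0 FPKM (adjusted p = 0.0287 from limma), and Nos3, whose enzyme caveolin-1 binds, had 329 ± 44.1 and 459 ± 92.7 (adjusted p = 0.0567 from limma). Flot1 had 82.1 ± 13.1 and 129 ± 16.5 (adjusted p = 0.0166 from limma). The 4 genes below the minimum, listed after their values were seen, were Cav3 and Murc, the muscle members of their families, with Pacsin1 and Dnm1. Cav3 had an FPKM of 0 in all P5 isolations and of 4.30, 1.29 and 0 at P30.

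Clathrin coats, the other main route of uptake from the surface, were set beside the caveolar genes with a list of 12 genes. All 12 were tested and 4 were called, 2 in each direction (33.3%, against 19.2% of all genes), with a median log2 difference of -0.26. This list too was chosen with earlier results of these data known, so its shares only describe it. At an unadjusted p under 0.05 from limma there were 2 higher and 6 lower, where 20.7% and 28.8% of all genes were. Cltb, a clathrin light chain, rose from 142 ± 21.2 to 296 ± 17.3 FPKM (log2 difference 1.07, adjusted p = 0.00113 from limma), and Epn2, an epsin adaptor, from 143 ± 5.87 to 239 ± 21.2 (log2 difference 0.73, adjusted p = 0.00198 from limma). Cltc, the clathrin heavy chain, fell from 637 ± 25.1 to 477 ± 24.6 (log2 difference -0.42, adjusted p = 0.00997 from limma), and was lost in 11 of the 16 alternatives, among them each isolation of either age left out (adjusted p from 0.0139 to 0.0586). Ap2s1, the small subunit of the AP-2 adaptor, fell from 345 ± 7.66 to 209.6 ± 18.4 (log2 difference -0.72, adjusted p = 0.00172 from limma). Epn2 was lost without P5 replicate 1, 2 or 3 (adjusted p = 0.0109, 0.0135 and 0.0132) and with endothelial marker scaling (log2 difference 0.49, adjusted p = 0.0232), and Ap2s1 without P5 replicate 2 or 3 (adjusted p = 0.0147 and 0.0113). Picalm, an adaptor that senses membrane curvature, had 935 ± 17.8 and 936.5 ± 199 FPKM, and Clta, the other light chain, had 605 ± 42.5 and 480.2 ± 53.2 (adjusted p = 0.0476 from limma).

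Genes of fenestra upkeep and of transport across ECs were covered by a list of 13, all of them tested. There were 5 calls in limma, all higher at P30 (38.5%), and 0 lower. Of all genes, 19.2% were called in either direction and 8.51% as higher. At an unadjusted p under 0.05 there were 8 higher and 0 lower (20.7% and 28.8% of all genes). Like the others, this list was chosen with earlier results of these data known, so its shares only describe it. Of the 5 calls, Mfsd2a passed the FPKM minimum at P30 alone, and the other 4 genes passed it at both ages. Mfsd2a is also among the 8 higher genes. The median log2 difference of the 13 genes was 0.44. VEGF made by the RPE is known to maintain the fenestrae of the choriocapillaris through receptors on its ECs. Flt1, the receptor VEGFR1, had 872, 827 and 857 FPKM at P5 and 2057, 1776 and 1993 at P30. It rose in every P30 isolation, with a log2 difference of 1.19 (SE 0.10, adjusted p = 0.000278 from limma), and was called in all 16 alternatives. Nrp1, the co-receptor neuropilin-1, rose from 1259.6 ± 31.8 to 1964 ± 248 (log2 difference 0.63, adjusted p = 0.00565 from limma), a call lost in 10 of the 16, including without P5 replicate 1, 2 or 3 (adjusted p = 0.0222, 0.0329 and 0.0276) and without P30 replicate 2 (adjusted p = 0.0149). Kdr, the receptor VEGFR2, was not called (log2 difference 0.44, adjusted p = 0.0338 from limma).

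Of the transport genes, Scarb1, a lipoprotein receptor, rose from 797 ± 47.6 to 1335 ± 93.3 FPKM (log2 difference 0.74, adjusted p = 0.00160 from limma). Insr, the insulin receptor, rose from 102 ± 15.9 to 278 ± 74.0 (log2 difference 1.42, adjusted p = 0.00195 from limma). Both calls were lost without P5 replicate 2 or 3 (adjusted p = 0.0119 and 0.0102 for Scarb1, 0.0120 and 0.0131 for Insr), and that of Scarb1 also with endothelial marker scaling (log2 difference 0.50, adjusted p = 0.0107). Mfsd2a, a lipid transporter known to hold down caveolar transport in ECs of the blood-brain barrier, had 6.71, 1.02 and 1.74 FPKM at P5 and 75.0, 60.3 and 21.6 at P30. It rose by 3.76 on the log2 scale (SE 0.62, adjusted p = 0.00368 from limma), but its P5 mean of 3.16 FPKM was below the minimum of 5 and it was tested through its P30 mean of 52.3 alone, so a difference was built into its selection. The call was lost without P5 replicate 2 or 3 (adjusted p = 0.0165 and 0.0217) or P30 replicate 1 or 2 (adjusted p = 0.0113 and 0.0142). Its order over the P30 isolations was that of the RPE marker sums, 3939, 2228 and 554 in P30 replicates 1, 2 and 3, and the part of RPE in it was not tested. Fcgrt, the receptor that carries IgG and albumin, had 478 ± 67.8 and 605 ± 77.2 FPKM and Gpihbp1, which carries lipoprotein lipase across capillaries, 271.5 ± 74.6 and 258 ± 24.6, and neither was called (adjusted p = 0.0955 and 0.869 from limma).

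**Figure D5:**
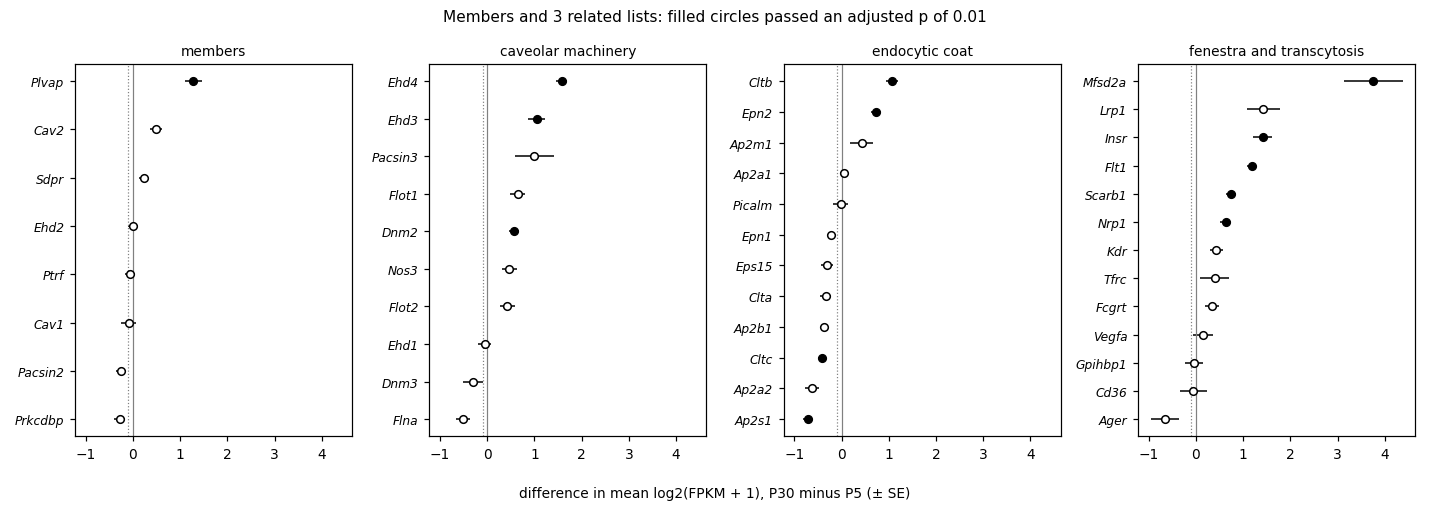
Difference in mean log2(FPKM + 1), P30 minus P5, with its SE (x axis), for the 8 genes and the tested genes of the caveolar machinery, endocytic coat, and fenestra and transcytosis lists, with circles filled where the adjusted p was under 0.01. In the first panel only Plvap is filled, and in the others 3, 4 and 5 genes are.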

How the data were processed

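RNA of choroid ECs sorted at P5 and P30 was sequenced on an Illumina platform (base calls with CASAVA 1.8.2, per the labels). TopHat served the authors for alignment to mm9, and the deposited FPKM values, one per gene symbol, came from CuffLinks, normalized for GC and the upper quartile. Versions of these tools and the annotation are not given in the sources used here. Read counts, which the study tested with DESeq2, were not used here. Low FPKM values gave no whole reads, as no bin of 0.05 in log2 ratio held over 3.79% of low genes (mean FPKM under 2) in any pair of samples. No 2 samples held identical values.

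The deposited FPKM values were tested as log2(FPKM + 1) in limma 3.58.1 (R 4.3.3, trend, age as the only term), checked on simulated data. The limits (adjusted p of 0.01, 2-fold, FPKM 5) are those of the study. Where nothing more is said, p-values set the difference between ages against the spread between 3 isolations per age. In limma the variance of each gene is also drawn toward a trend over all genes tested. Intervals of 95% come from the limma SE. Exact permutation tests and log2 ratios were computed in R, and linear ratios in Python (version 3.11.15, with numpy 2.4.6). The replicate numbers did not pair the samples. Genes named are the 8 members and, from each list, those called and up to 4 others of high FPKM, or the 5 most like Plvap or Cav1, of which 1 is not reported here. The members and lists were chosen with earlier results of these data known. Promoters are those of RefSeq. Alternatives were other pseudocounts, minimum values, scalings and variance models, a replicate block, and each isolation left out in turn.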

Additional observations from a re-analysis of the deposited data

How the results depend on the processing

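The call of Plvap, the only one among the 8 genes, held with pseudocounts of 0.1 and 5, no minimum or one of 20 FPKM, no trend, median-of-ratios scaling, endothelial marker scaling, equal summed FPKM (added after the data were seen) and the replicate block. With quantile normalization 0 genes were called as higher, at either limit of fold. Leaving out 1 isolation gave 0 to 1 such calls, with and without the 2-fold limit, and a difference in Plvap from 1.14 to 1.46. No gene of the 8 was called as lower in any alternative. With the replicate number as a block, Plvap had an adjusted p of 0.00498 from limma and the caveolar machinery list 1 call in place of 3. Same-numbered isolations deviated from their age means with correlations of -0.06, -0.09 and -0.03, so the numbers gave no pairing. Over all genes 2400 were called, 1415 with the replicate block, and 1112, 757 and 823 without P5 replicates 1, 2 and 3.

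Signs turned for Cav1 (0.011) and Ptrf (0.037) with median-of-ratios scaling, for Sdpr with quantile normalization (-0.048) and endothelial marker scaling (-0.0079), and for Ehd2 with these (-0.23 and -0.23) and with equal summed FPKM (-0.16). None of these 4 genes was called in any of them. Without 1 isolation Ehd2 ranged from -0.081 to 0.065. The Pacsin2 to Cav1 log ratio was 0.15 with quantile normalization, and that of Ptrf to Cav1 ranged from -0.094 to 0.15 without 1 isolation. The summed coat level differed by -306 FPKM with equal summed FPKM, -500.2 with endothelial marker scaling, and -25.5 to 361 without 1 isolation. The endocytic coat list had 8 calls with equal summed FPKM and the fenestra and transcytosis list 3 with endothelial marker scaling. Without 1 isolation the 3 lists had 1 to 3 (caveolar machinery), 1 to 4 (endocytic coat) and 1 to 5 (fenestra and transcytosis) calls. The causes were not tested. Depth is unknown, so it cannot be said how far counting error limits the low genes.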
